A study of Mus musculus with 2 samples.

Results

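The interferon gamma induced GTPases described here are 10 genes of the IRG family (immunity-related GTPases) and the GBP family (guanylate-binding proteins). They were taken by name as the rows of both count tables that map to 4 IRG genes, Iigp1, Irgm1, Irgm2 and Igtp, and to 6 GBP genes, Gbp2, Gbp3, Gbp4, Gbp5, Gbp6 and Gbp7. All 10 were found, among 31053 gene rows, and all 10 had counts in both libraries. The data are single-cell RNA profiles (10x Genomics, 3' v3 chemistry) of hand-picked pancreatic islets from wild-type (WT NOD) mice of the inbred NOD/ShiLtJ strain, a model of spontaneous autoimmune diabetes. The mice were 15 weeks old and ate 1 of 2 diets, 16% HC + 4% gluten or 20% HC, where HC is a component that the labels do not expand. Both groups shared strain, genotype and age, and no agent or allele other than the diet separates them in the labels. Each diet is 1 library made from the pooled cells of 3 mice, which gives no spread between replicates and allows no test across samples. Every interval covers counting error only. With 1 islet preparation per diet, the diet and the preparation cannot be told apart.

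Interferon gamma, secreted mainly by T cells and NK cells, signals through its receptor and JAK kinases to genes that carry GAS elements, and it also drives IRF1, which binds ISRE elements. IRG and GBP proteins are large GTPases made in response to this signal, and they assemble on the membranes of vacuoles that hold intracellular pathogens. In the mouse IRG family, Iigp1 (also called Irga6) is an effector that coats such vacuoles, while Irgm1, Irgm2 and Igtp (Irgm3) are regulators that hold the effectors inactive on the cell's own membranes. GBPs help to break these vacuoles open and expose their contents to inflammasomes, and Gbp5 is known for its part in assembly of the NLRP3 inflammasome. In islets of NOD mice, infiltrating leukocytes are a source of interferon gamma for the endocrine, endothelial and stromal cells around them.

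The 8200 barcodes of the gluten library held 88268070 UMIs (unique molecular identifiers, each counting 1 captured RNA molecule), and the 7758 barcodes of the 20% HC library held 116900677. After filters, 7122 and 7111 cells remained, and 15 barcode sequences occurred in both libraries. Cells were sorted into classes by marker genes, none of which is a GTPase gene, and 9 classes had at least 50 cells in each library. They took in 5896 cells (82.8%) of the gluten library and 6327 (89%) of the 20% HC library. Each class is called by its markers with "-like". Beta-like cells lay in different clusters in the 2 libraries: 945 of the 985 cells of a cluster led by Defb1, Trpm5 and B830017H08Rik came from the gluten library, against 133 of the 1416 cells of a cluster led by Plut, Tmem215 and Mafa. In another beta cluster, led by Gm4841, F830016B08Rik and Vgf, 77 of 254 cells came from the gluten library.

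The upstream DNA of 3 members is shown because it holds both elements through which interferon gamma acts, and because Igtp and Irgm2 share them in the same arrangement. RefSeq promoters (GRCm38.p6) were at hand for 7 of the 10 genes, Gbp2, Gbp3, Gbp5, Gbp7, Igtp, Irgm1 and Irgm2, and not for Gbp4, Gbp6 and Iigp1. Printed 5′ to 3′ are the 250 bases before the RefSeq start of Igtp (chr11:58199306-58199555, plus strand), Irgm2 (chr11:58214727-58214976, plus strand) and Gbp7 (chr3:142530086-142530335, plus strand). Capitals mark matches to the GAS motif, which is TTC and GAA with any 3 bases between them, and to the ISRE motif, which is GAAA and GAAA (TTTC and TTTC on the other strand) with any 2 bases between them.
Igtp: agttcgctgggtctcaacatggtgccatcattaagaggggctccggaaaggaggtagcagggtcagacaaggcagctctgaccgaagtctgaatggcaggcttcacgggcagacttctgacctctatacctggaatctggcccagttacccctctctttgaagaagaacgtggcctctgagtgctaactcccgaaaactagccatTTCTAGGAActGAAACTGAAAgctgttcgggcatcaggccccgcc
Irgm2: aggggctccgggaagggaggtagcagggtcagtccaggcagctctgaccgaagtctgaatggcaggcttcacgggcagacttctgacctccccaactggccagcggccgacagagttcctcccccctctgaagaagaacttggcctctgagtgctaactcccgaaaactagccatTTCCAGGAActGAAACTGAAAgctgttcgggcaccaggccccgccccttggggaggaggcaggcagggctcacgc
Gbp7: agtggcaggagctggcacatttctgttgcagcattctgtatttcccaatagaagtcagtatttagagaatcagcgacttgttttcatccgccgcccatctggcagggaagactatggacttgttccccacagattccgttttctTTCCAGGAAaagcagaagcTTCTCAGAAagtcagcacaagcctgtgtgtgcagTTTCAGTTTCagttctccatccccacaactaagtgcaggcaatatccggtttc

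In Igtp the GAS match TTCTAGGAA lies 45 to 37 bases before the start, and the ISRE match GAAACTGAAA 34 to 25 bases before it. Irgm2 carries TTCCAGGAA at 75 to 67 bases and the same ISRE letters at 64 to 55 bases, so in both genes the ISRE match begins 11 bases after the GAS match begins. The longest run of letters that both windows share is 55 bases. Gbp7 has 2 GAS matches, at 106 to 98 and 87 to 79 bases, and an ISRE match, TTTCAGTTTC, at 53 to 44 bases. Over both strands and overlaps allowed, a GAS match was found in 4 of the 7 genes (Gbp5, Gbp7, Igtp and Irgm2) and in 7.02% of 32851 promoter windows of the same length. An ISRE match was found in all 7 genes and in 2.98% of the windows. Both stood in 4 of the 7 genes and in 0.332% of the windows. Gbp3 has 2 windows, and the one at chr3:142560106-142560355 holds no match to either motif. Counted by window, 4 of the 8 windows of these genes held a GAS match, 7 an ISRE match and 4 both. The 11-base arrangement of Igtp and Irgm2 was looked for after it was seen there, with the GAS match first and not in the reverse order. It occurs in 5 of the 32851 windows. The other 3 belong to Gm12185, Tgtp1 and Tgtp2, of which Tgtp1 and Tgtp2 are also interferon-inducible IRG genes. A match to these letters is a description and does not show that a factor binds there.

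Of the 10 genes, Gbp5, Gbp7, Gbp3 and Gbp2 lie side by side on chromosome 3 of the mm10 build, at chr3:142493978-142522344, chr3:142530342-142550149, chr3:142560026-142573209 and chr3:142620602-142638008. Gbp4 (chr5:105115767-105139586) and Gbp6 (chr5:105270702-105293698) lie on chromosome 5, and Irgm1 (chr11:48861968-48871683), Igtp (chr11:58199556-58207591) and Irgm2 (chr11:58199618-58222782) on chromosome 11. Iigp1 is on chromosome 18. The annotated Irgm2 model starts inside Igtp, and 3 pairs of their exons overlap. The last exons of Irgm2 and Igtp, from which 3' reads mostly come, are apart at chr11:58219464-58222782 and chr11:58206044-58207591. Reads in the overlapping exons were not examined. Gbp6 has a close copy in Gbp10 and Gbp2 in Gbp2b, and reads that could come from either copy make these counts uncertain.

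Every class expressed the GTPase genes, and endothelial-like cells had the highest summed level in both libraries. Levels are UMIs of the 10 genes per 1000000 UMIs of the class (CPM), with exact Poisson 95% intervals in brackets. Endothelial-like cells stood at 2359 CPM [2278, 2441] in the gluten library and 3339 [3221, 3461] in the 20% HC library. Mesenchymal-like cells followed with 1288 [1222, 1356] and 1598 [1515, 1683], and macrophage-like cells with 918 [863, 974] and 1138 [1092, 1185]. The remaining classes were lower in both libraries. Dendritic-like cells had 675 CPM [622, 732] with gluten and 744 [698, 791] with 20% HC. T-like cells had 434 [413, 456] and 532 [517, 548], and B-like cells 253 [234, 273] and 402 [382, 423]. Delta-like cells, which make somatostatin, had 261 CPM [247, 276] with gluten and 798 [768, 829] with 20% HC. Alpha-like cells, which make glucagon, had 209 [201, 218] and 522 [506, 538], and insulin-making beta-like cells 208 [204, 213] and 427 [422, 432]. In the gluten library, neighbours in the order with overlapping intervals were delta-like and B-like cells, and alpha-like and beta-like cells. In the 20% HC library they were delta-like and dendritic-like, T-like and alpha-like, and beta-like and B-like cells. Delta-like cells were 6th of the 9 classes with gluten and 4th with 20% HC.

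**Figure D1:**
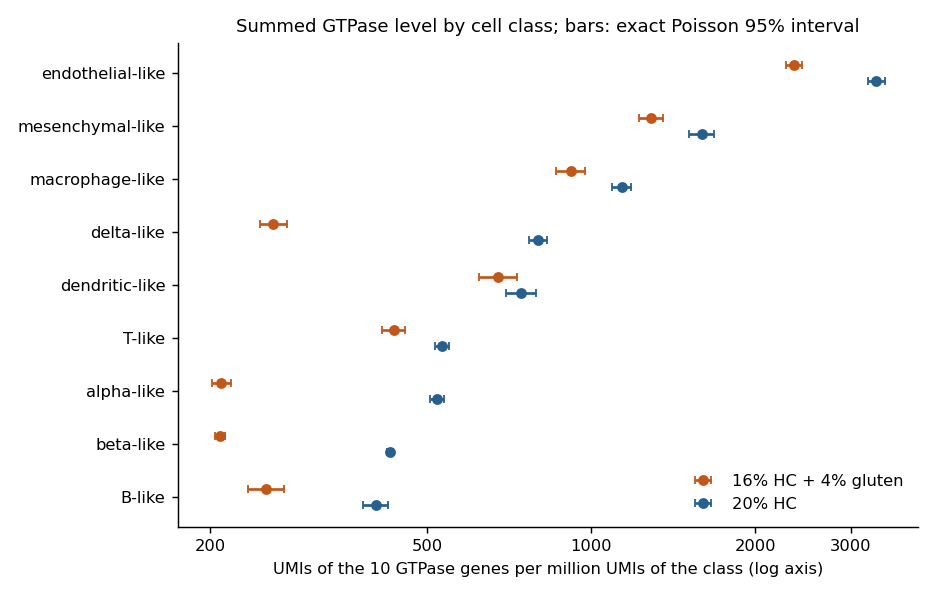
Summed level of the 10 GTPase genes in each of the 9 classes, in CPM on a log axis, with the gluten library above the 20% HC library in each row and bars for the exact Poisson 95% interval. Endothelial-like cells are highest in both libraries (2359 and 3339 CPM), and of the 9 classes the widest gap between the libraries is in delta-like cells (261 and 798 CPM).

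The order of the endocrine classes depends on what a level is divided by, since hormones fill much of their RNA. Hormone, acinar enzyme and mitochondrial genes took 68.9% of the UMIs of beta-like cells with gluten and 69.2% with 20% HC, 40% and 43.4% in alpha-like cells, and 4.56% and 3.38% in endothelial-like cells. With those genes left out of the total, a scale chosen after seeing the data, beta-like cells stood at 671 CPM [656, 686] with gluten and 1384 [1367, 1400] with 20% HC. They were then 5th and 3rd of the 9 classes, where on all UMIs they were 9th and 8th. Endothelial-like cells stayed first in both libraries, at 2472 [2387, 2558] and 3456 [3333, 3582], and mesenchymal-like cells second, at 1349 [1280, 1420] and 1658 [1572, 1747]. Acinar-like cells, few in number, stood near 0, with 4 GTPase UMIs in 23 cells (29.6 CPM) with gluten and 3 UMIs in 18 cells (5.6 CPM) with 20% HC. Free RNA from broken beta cells was gauged by insulin alone. Insulin made up 0.507% to 1.55% of UMIs in the 8 other classes with gluten and 0.342% to 0.895% with 20% HC. If all of it were free beta cell RNA, it would bring at most 5.24 and 6.17 CPM of GTPase UMIs. In acinar-like cells the same estimate was 3.72 and 2.08 CPM, below the 29.6 and 5.6 CPM found there. Free RNA from other cells is not in this estimate and was not tested.

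Which GTPase genes made up the signal differed between cell types. Shares are of the UMIs of the 10 genes in a class, and since 3' UMIs are not divided by length they are compared for 1 gene across classes. Iigp1 made up 24.9% of GTPase UMIs in beta-like cells with gluten and 38.5% with 20% HC, and 35.3% and 28.1% in mesenchymal-like cells. In T-like cells its share was 5.08% and 7.95%, and in B-like cells 2.53% and 4.49%. Gbp2 had its highest shares in dendritic-like cells, 40.6% with gluten and 32.8% with 20% HC, and in macrophage-like cells, 38.3% and 36%. The joint share of the 4 IRG genes was 61.9% [60.9, 63] with gluten and 72% [71.5, 72.5] with 20% HC in beta-like cells, and 23% [20.5, 25.6] and 24.6% [22.9, 26.4] in macrophage-like cells. With gluten the beta interval overlapped those of delta-like cells, at 61.5% [58.8, 64.2], and mesenchymal-like cells, at 60.1% [57.5, 62.6], and the macrophage interval that of dendritic-like cells, at 24.9% [21.5, 28.6]. The Iigp1 share was lower with gluten in 7 of the 9 classes and higher in endothelial-like cells, at 21.3% and 15.7%, and in mesenchymal-like cells.

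**Figure D2:**
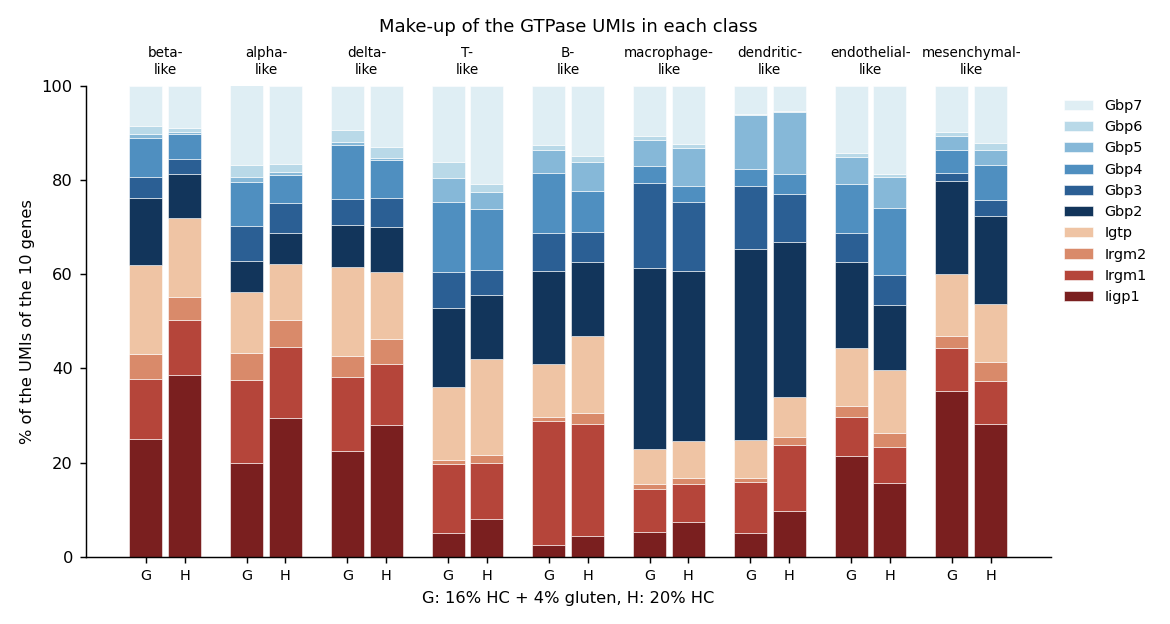
Share of each gene in the UMIs of the 10 GTPase genes, in percent, for each class in the gluten library (G) and the 20% HC library (H), with IRG genes in red tones and GBP genes in blue tones. Iigp1 takes 24.9% and 38.5% in beta-like cells and 2.53% and 4.49% in B-like cells, and Gbp2 takes 38.3% and 36% in macrophage-like cells.

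The comparison of the diets asked how far the level of each GTPase gene in a given cell type differed between the gluten and the 20% HC library. Differences are log2 ratios of CPM, gluten over 20% HC, with exact conditional binomial 95% intervals. A gene counts as measured if the library where its CPM is higher holds 50 or more of its UMIs, and as 2-fold lower or higher if it is measured and past that ratio. The summed GTPase level was lower with gluten in all 9 classes, most in the endocrine cells. The log2 ratio was -1.61 [-1.71, -1.52] in delta-like, -1.32 [-1.39, -1.25] in alpha-like and -1.03 [-1.07, -1.0] in beta-like cells. It was smaller in the others, at -0.67 [-0.80, -0.53] in B-like, -0.50 [-0.57, -0.43] in endothelial-like, -0.31 [-0.42, -0.21] in macrophage-like, -0.31 [-0.42, -0.20] in mesenchymal-like and -0.29 [-0.38, -0.21] in T-like cells. In dendritic-like cells it was -0.14 [-0.29, 0.01], an interval that holds 0. The median of all measured genes lay between -0.13 and 0.07 in these classes. When cells were thinned to equal depth within their class, the endothelial value was -0.82 and not -0.50. Of the measured members, 9 of 10 were lower by any size in beta-like cells (53% of all measured genes), 9 of 9 in alpha-like (40.3%), 9 of 9 in delta-like (55.3%), 6 of 10 in T-like (68.1%) and 8 of 8 in B-like cells (65.8%). The counts were 8 of 8 in macrophage-like (69.3%), 5 of 7 in dendritic-like (64.9%), 9 of 9 in endothelial-like (45.2%) and 6 of 7 in mesenchymal-like cells (49.9%). No member was 2-fold higher with gluten in any class, where 1.18% of all measured genes were in beta-like, 1.63% in alpha-like, 1.11% in delta-like, 1.71% in T-like and 1.41% in B-like cells. The shares were 2.75% in macrophage-like, 2.35% in dendritic-like, 3.42% in endothelial-like and 3.21% in mesenchymal-like cells.

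**Figure D3:**
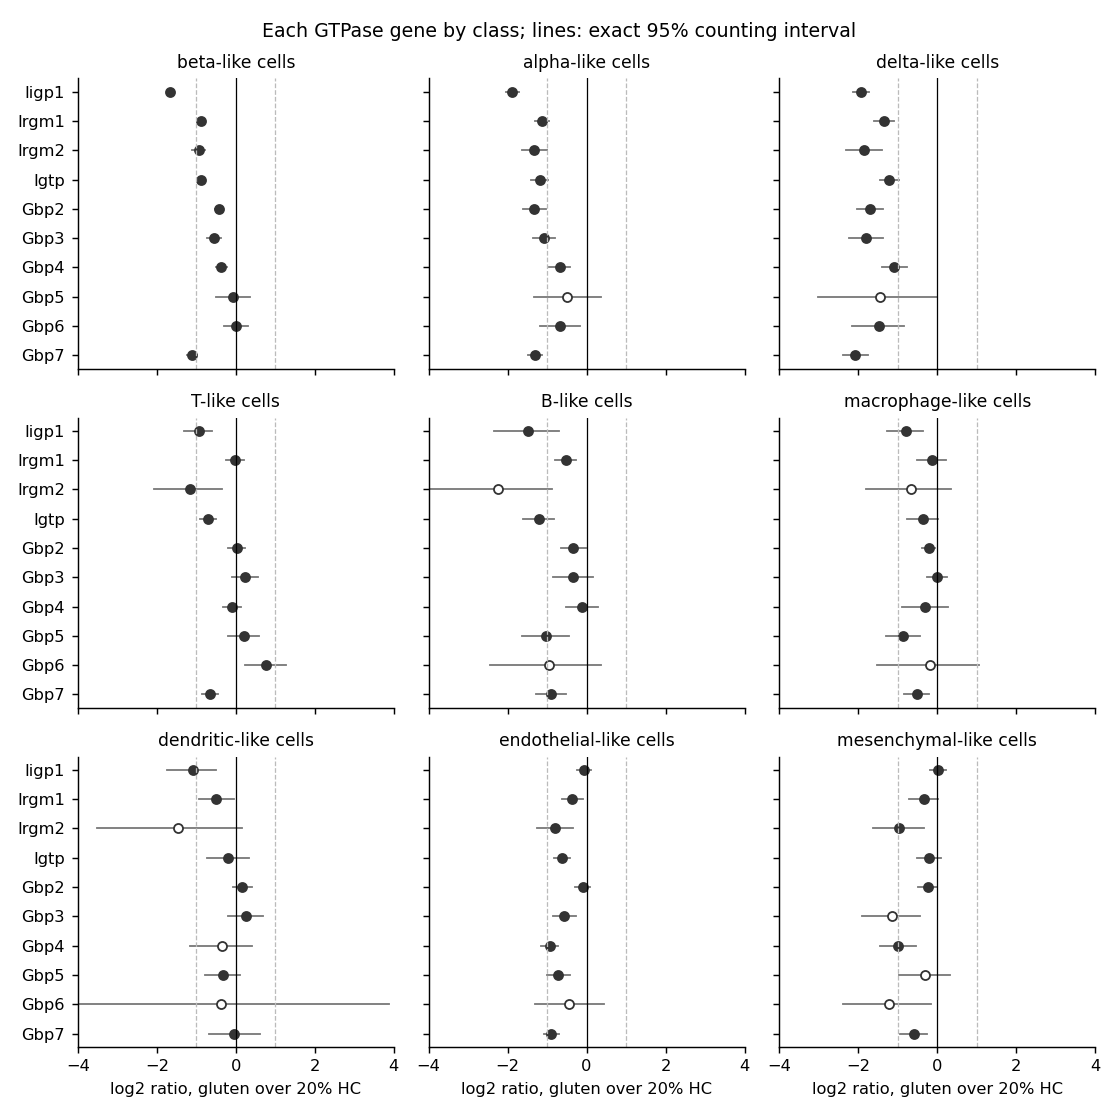
Log2 ratio of each GTPase gene, gluten over 20% HC, in each of the 9 classes, with lines for the exact 95% counting interval, cut at the ends of the axis where longer, and dashed lines at 2-fold. Filled points are measured genes and open points have fewer than 50 UMIs. In delta-like cells all 10 points lie below -1, while in T-like cells they lie on both sides of 0, with Gbp6 at 0.76.

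In beta-like cells the effector Iigp1 was the member with the widest difference. It had 51.8 CPM with gluten and 164 with 20% HC, a log2 ratio of -1.66 [-1.73, -1.60], the 12th lowest of 11075 measured genes. The 3 regulators were lower by a like amount among themselves. Igtp stood at 39.3 and 71.9 CPM (-0.87 [-0.96, -0.79]), Irgm1 at 26.9 and 49.8 (-0.89 [-0.99, -0.79]) and Irgm2 at 11 and 21.2 (-0.94 [-1.10, -0.78]). Among the GBP genes only Gbp7 differed as much, with 17.7 CPM with gluten and 38.2 with 20% HC (-1.11 [-1.24, -0.99]). Gbp2, with 29.7 and 39.8 CPM (-0.42 [-0.52, -0.32]), Gbp3, with 9.32 and 13.7 (-0.56 [-0.74, -0.38]), and Gbp4, with 17.2 and 22.2 (-0.37 [-0.50, -0.23]), were also lower. Gbp5, at 1.86 and 1.94 CPM, and Gbp6, at 3.59 and 3.58 CPM, had intervals that hold 0. The IRG genes summed to -1.25 [-1.30, -1.21] and the GBP genes to -0.59 [-0.65, -0.53], intervals that do not overlap. Of the 10 members, all measured, 2 were 2-fold lower, Iigp1 and Gbp7, where 0.587% of all measured genes were. Intervals wholly below 0 were found for 8 of the 10 and for 21.1% of all measured genes. The sum of the 9 genes without Iigp1 had a log2 ratio of -0.74 [-0.79, -0.70].

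Alpha-like cells differed more than beta-like cells, and more evenly across both families, though the IRG genes still differed more. The IRG sum was -1.47 [-1.56, -1.37] and the GBP sum -1.10 [-1.22, -0.99], intervals that do not overlap. Iigp1 again came first, with 41.8 CPM with gluten and 153 with 20% HC (-1.87 [-2.03, -1.72]), the 5th lowest of 9380 measured genes. Gbp7 stood at 35.1 and 86.6 CPM (-1.30 [-1.48, -1.12]), and Gbp2 at 13.8 and 34.6 (-1.32 [-1.61, -1.03]). The regulators Irgm2 (12.1 and 30.2 CPM, -1.32), Igtp (27.0 and 61.4, -1.19) and Irgm1 (36.5 and 79.6, -1.12) and the GBP gene Gbp3 (15.5 and 32.7, -1.08) were also past 2-fold. Gbp4, at 19.6 and 31.5 CPM, and Gbp6, at 5.52 and 8.83, shared a log2 ratio of -0.68 with intervals below 0. Gbp5 was below the minimum, with 26 UMIs in each library, and its ratio was -0.48 [-1.33, 0.36]. In all, 7 of the 9 measured members were 2-fold lower, against 0.704% of all measured genes, and all 9 had intervals below 0, against 11.5%. Gbp2 and Gbp3, at -0.42 and -0.56 in beta-like cells, thus lay past 2-fold here, with intervals that do not overlap those in beta-like cells.

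Delta-like cells had the widest difference of the 9 classes. Gbp7 had 24.5 CPM with gluten and 103 with 20% HC (-2.07 [-2.38, -1.77]), the 3rd lowest of 7550 measured genes. Iigp1 had 58.6 and 223 CPM (-1.93 [-2.13, -1.73]), and Irgm2 11.9 and 42.9 (-1.85 [-2.31, -1.40]). Gbp3 (14.2 and 49.3 CPM, -1.80), Gbp2 (23.4 and 76.5, -1.71), Gbp6 (6.58 and 18.4, -1.49), Irgm1 (40.7 and 103, -1.34), Igtp (49.2 and 114, -1.21) and Gbp4 (30.2 and 64.1, -1.08) completed the 9 measured members. Each of these 9 was 2-fold lower with gluten, against 0.901% of all measured genes, and had an interval below 0, against 14.4%. Gbp5 rested on 7 UMIs with gluten and 13 with 20% HC. The IRG sum, at -1.59 [-1.72, -1.47], and the GBP sum, at -1.65 [-1.81, -1.49], overlapped. Acinar RNA was common in this class in both libraries: 15.3% of delta-like cells with gluten and 16.4% with 20% HC had at least 10 UMIs of acinar markers. Without those cells the summed log2 ratio was -1.41, and Irgm1 (-0.96), Igtp (-0.96) and Gbp4 (-0.90) were no longer past 2-fold.

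In the 3 endocrine classes a smaller share of cells held many GTPase UMIs with gluten. Each cell was thinned to 22673 UMIs in beta-like, 7545 in alpha-like and 6420 in delta-like cells, and shallower cells were left out (330, 263 and 144 with gluten, and 239, 65 and 29 with 20% HC). At least 1 GTPase UMI was then seen in 50.3% of beta-like cells [47, 53.5] with gluten and 78.7% [76.5, 80.9] with 20% HC, or 54.8% and 83.6% without thinning. In alpha-like cells the share was 35.7% and 63.4% (unthinned 39.5% and 72.2%), and in delta-like cells 38.3% and 73.2% (unthinned 43.9% and 83.2%). In acinar-like cells, the comparison for free RNA, it was 2 of 23 cells (8.7%) at a median of 3802 UMIs with gluten and 2 of 18 (11.1%) at 14913 with 20% HC. Cells with at least 10 GTPase UMIs made up 13.7% of thinned beta-like cells (126 of 923) with gluten and 29% (391 of 1350) with 20% HC. Chosen by that count, these cells had a mean of 28.4 GTPase UMIs with gluten and 27.4 with 20% HC. The other beta-like cells averaged 0.974 and 2.24. In alpha-like cells 4.61% and 12.5% reached 10 UMIs, with means of 18.7 and 20.3 in them and 0.728 and 1.48 in the rest. In delta-like cells 5.01% and 16.7% did, with means of 17.5 and 22 in them and 0.784 and 1.9 in the rest. The richest 10% of beta-like cells held 72.8% of their class's GTPase UMIs with gluten and 49.2% with 20% HC. In alpha-like cells the richest 10% held 75.7% and 59.6%, and in delta-like cells 73.6% and 53.6%. Shares were lower in T-like cells, at 47.3% and 44.1% (thinned to 1894 UMIs), and in macrophage-like cells, at 32.6% and 31% (thinned to 2707). These depths differ from those of the endocrine classes, and their part in the shares was not tested.

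**Figure D4:**
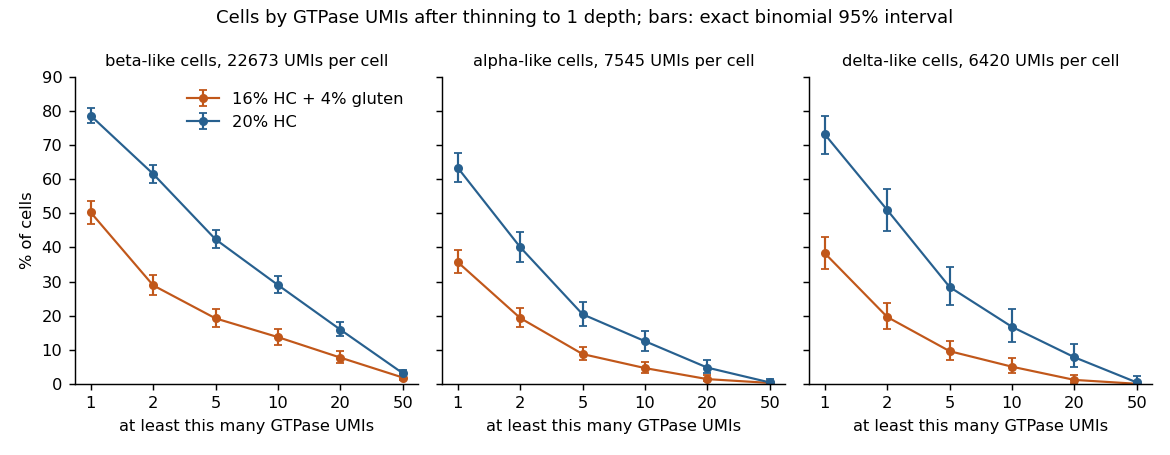
Percent of beta-, alpha- and delta-like cells with at least 1, 2, 5, 10, 20 or 50 UMIs of the 10 GTPase genes, after each cell was thinned to the depth in the panel title, in the gluten library and the 20% HC library, with bars for the exact binomial 95% interval. The gluten curve lies lower in all 3 panels, at 13.7% against 29% of beta-like cells for at least 10 UMIs.

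Within beta-like cells several GTPase genes were found more often in cells with Iigp1 than in cells without it. Among thinned beta-like cells with an Iigp1 UMI (197 of 923 with gluten, 686 of 1350 with 20% HC), Igtp was also detected in 71.6% with gluten and 65.9% with 20% HC. Among cells without Iigp1 it was detected in 10.7% and 21.2%. For Gbp2 the shares were 55.8% and 39.8% with Iigp1, against 4.27% and 8.13% without it, and for Gbp4 50.8% and 36.2%, against 3.58% and 2.56%. Across cells, Pearson's r of log2(UMI + 1) between Iigp1 and the other 9 genes summed was 0.80 with gluten (923 cells) and 0.74 with 20% HC (1350 cells), as a description over cells that share a library and a depth. The same r was weaker for Gbp3, at 0.59 and 0.38, and for Gbp6, at 0.31 with 20% HC. For Iigp1 it was 0.62 and 0.71 in alpha-like cells and 0.59 and 0.69 in delta-like cells.

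Beta-like cells with at least 10 GTPase UMIs also carried more RNA of some other interferon gamma targets than cells under 10. B2m, the light chain of MHC class I, stood at 1369 CPM in the richer and 240 in the other cells with gluten, and at 1147 and 631 with 20% HC, and the chemokine gene Cxcl10 at 791 and 36 with gluten and 363 and 6.73 with 20% HC. Cxcl9 stood at 16.3 CPM [12.7, 20.5] and 1.69 [1.25, 2.23] with gluten, while with 20% HC its intervals overlapped, at 1.13 [0.699, 1.73] and 1.04 [0.756, 1.39]. Ifngr1, a chain of the interferon gamma receptor, had overlapping intervals, at 6.09 and 4.82 CPM with gluten and 6.19 and 6.57 with 20% HC. Ins2 differed little, at 410080 and 452546 CPM with gluten and 419781 and 438752 with 20% HC, and the beta cell factor Mafa was at 191 and 251, and 251 and 279. The somatostatin gene Sst was also higher in the richer cells, at 3461 and 1788 CPM with gluten and 2369 and 1730 with 20% HC. The part of mixed droplets in this was not tested. The richer cells were chosen by GTPase UMIs, so these values describe them and nothing was tested.

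In T-like cells, the main source of interferon gamma in these data, 3 of the 4 IRG genes and 1 of the 6 GBP genes had intervals below 0. The IRG sum was 156 CPM with gluten and 224 with 20% HC (-0.52 [-0.66, -0.39]), and the GBP sum 278 and 309 (-0.15 [-0.26, -0.05]). Iigp1 had 22.0 CPM with gluten and 42.3 with 20% HC (-0.94 [-1.31, -0.59]), Igtp 66.7 and 109 (-0.71 [-0.92, -0.50]) and Irgm2 4.03 and 8.99 (-1.16 [-2.06, -0.34]). Irgm1, the other regulator, had 63.2 and 63.7 CPM (-0.01 [-0.24, 0.21]). Gbp7 had 70.7 and 112 CPM (-0.66 [-0.86, -0.46]), while Gbp2 (73.4 and 72.2 CPM), Gbp3 (32.5 and 27.7), Gbp4 (64.8 and 69.3) and Gbp5 (22 and 19.2) had ratios between -0.10 and 0.23 with intervals that hold 0. Gbp6 was the only member with an interval above 0 in any of the 9 classes, at 14.8 CPM with gluten and 8.75 with 20% HC (0.76 [0.22, 1.28]), on 55 and 73 UMIs. Intervals above 0 were found for 12.1% of all measured genes in T-like cells. Of the 10 members, 1 was 2-fold lower, Irgm2, against 2.65% of all measured genes, and 4 had intervals below 0, against 25.1%. The Ifng gene itself was level between the libraries in T-like cells, at 152 CPM [140, 165] with gluten and 153 [145, 162] with 20% HC. T-like cells with an Ifng UMI were 22.6% and 19.9% of the class, and T-like cells held 66.5% and 80.8% of all Ifng UMIs of kept cells. They were 1211 of 7122 kept cells with gluten and 2182 of 7111 with 20% HC, and over all kept cells Ifng stood at 10.9 and 14.9 CPM. The part of these cell numbers in the GTPase levels was not tested.

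In B-like cells all 10 members, 8 of them measured, had ratios below 0, where 65.8% of all measured genes did. Igtp had 28.3 CPM with gluten and 65.5 with 20% HC (-1.21 [-1.60, -0.83]), Iigp1 6.41 and 18.1 (-1.49 [-2.36, -0.71]) and Gbp5 12.4 and 25.3 (-1.03 [-1.64, -0.44]). These 3 were the 2-fold lower ones among 8 measured members, against 2.94% of all measured genes, and 6 had intervals below 0, against 24%. Irgm1 had 66.7 and 95.7 CPM (-0.52 [-0.79, -0.26]), Gbp7 32.1 and 59.6 (-0.89 [-1.27, -0.53]) and Gbp2 50.2 and 63.3 (-0.34 [-0.65, -0.02]). Gbp3, at 20.4 and 25.6 CPM (-0.33), and Gbp4, at 32.1 and 34.8 (-0.12), had intervals that hold 0, while Irgm2, with 5 and 33 UMIs, and Gbp6, with 7 and 19, were below the minimum.

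In macrophage-like cells Gbp2 had 351 CPM with gluten and 409 with 20% HC (-0.22 [-0.39, -0.05]), and Gbp3 167 and 168. Gbp5 had 50.5 and 91.8 CPM there (-0.86 [-1.31, -0.43]) and Iigp1 48.0 and 83.5 (-0.80 [-1.26, -0.36]). None of the 8 measured members was 2-fold lower in macrophage-like cells, against 2.4% of all measured genes, and 4 had intervals below 0, against 18.6%. Irgm1 (84 and 92.3 CPM, -0.14), Igtp (69.4 and 89.3, -0.36) and Gbp4 (32.6 and 40.3, -0.31) had intervals that hold 0, and Gbp7 had 97.7 and 140 CPM (-0.52 [-0.84, -0.20]). Irgm2, with 11 and 31 UMIs, and Gbp6, with 9 and 18, were below the minimum. The Gbp2 interval held 0 under TMM and median-of-ratios scaling and when thinned, and those of Iigp1 and Gbp7 when thinned.

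In dendritic-like cells the IRG sum was lower, at 168 CPM with gluten and 253 with 20% HC (-0.59 [-0.88, -0.31]), and the GBP sum was not, at 507 and 491 (0.05 [-0.13, 0.22]). The 1 member of 7 that was 2-fold lower there was Iigp1, at 34.1 and 72.7 CPM (-1.09 [-1.73, -0.49]), against 2.38% of all measured genes, and 2 members had intervals below 0, against 16%. The other with an interval below 0 was Irgm1, at 73.9 and 104 CPM (-0.49 [-0.94, -0.06]). Igtp (55.7 and 63.8 CPM, -0.20), Gbp2 (274 and 244, 0.17), Gbp3 (89.8 and 75.6, 0.25), Gbp5 (77.3 and 97.1, -0.33) and Gbp7 (39.8 and 40.8, -0.04) had intervals that hold 0. Irgm2, with 4 and 17 UMIs, Gbp4, with 22 and 43, and Gbp6, with 1 and 2, were below the minimum. With classes from clusters Iigp1 was at -0.98 and Gbp7 at -0.71, where the marker rule gave Gbp7 -0.04. The cluster used there held 612 cells, 322 of them from the gluten library, and was led by Mcemp1, Nccrp1 and Alox5ap. It thus held many cells that the marker rule did not call dendritic-like. As many as 43 of the 96 dendritic-like cells with gluten and 53 of 115 with 20% HC sat at the minimum of their marker rule.

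Endothelial- and mesenchymal-like cells, the richest of the 9 classes in GTPase RNA, had Iigp1 intervals that hold 0 before thinning. In endothelial-like cells Iigp1 had 503 CPM with gluten and 525 with 20% HC (-0.06 [-0.23, 0.11]), and Gbp2 430 and 462 (-0.10 [-0.29, 0.08]). Gbp4 had 248 and 474 CPM (-0.93 [-1.14, -0.73]), Gbp7 335 and 620 (-0.89 [-1.07, -0.71]) and Igtp 288 and 444 (-0.62 [-0.83, -0.42]). Irgm1 stood at 199 and 255 CPM (-0.36), Irgm2 at 56.2 and 98.1 (-0.81), Gbp3 at 147 and 216 (-0.56) and Gbp5 at 133 and 219 (-0.71), all with intervals below 0, and Gbp6 rested on 26 and 23 UMIs. Unlike in beta-like cells, the GBP sum was lower by more, at -0.62 [-0.71, -0.52], than the IRG sum, at -0.34 [-0.45, -0.23]. Of 9 measured members, 7 had intervals wholly below 0, against 12.5% of all measured genes, and none was 2-fold lower, against 0.885%. When cells were thinned to equal depth, however, Iigp1 stood at -0.33 [-0.61, -0.06] and Gbp2 at -0.60 [-0.90, -0.31], both then clear of 0, and Igtp at -1.06. In mesenchymal-like cells Iigp1 had 455 CPM with gluten and 449 with 20% HC (0.02 [-0.17, 0.21]), Gbp4 60.5 and 121 (-1.0 [-1.46, -0.54]) and Gbp7 126 and 191 (-0.60 [-0.93, -0.27]). Irgm2 had 32 and 62.7 CPM (-0.97 [-1.62, -0.34]), while Irgm1 (117 and 148, -0.35), Igtp (170 and 197, -0.21) and Gbp2 (254 and 301, -0.25) had intervals that hold 0. Gbp3, with 27 and 47 UMIs, Gbp5, with 44 and 43, and Gbp6, with 12 and 22, were below the minimum. In mesenchymal-like cells too the GBP sum was lower by more, at -0.53 [-0.69, -0.36], than the IRG sum, at -0.15 [-0.29, -0.00]. None of the 7 measured members there passed 2-fold, against 1.56%, with Gbp4 just short of it, and 3 had intervals below 0, against 15%. Thinned, Gbp4 stood at -0.24 [-1.08, 0.60], Gbp7 at -0.33 [-0.90, 0.25] and Irgm2 at -0.63 [-1.89, 0.62], all 3 intervals then holding 0. The unthinned Iigp1 interval in these 2 classes does not overlap those of the 3 endocrine classes, where its ratio lay between -1.93 and -1.66, and this difference was not tested. Median depth per cell was lower with gluten in both, at 3544 UMIs against 5783 in endothelial-like and 5351 against 6540 in mesenchymal-like cells, and its part in these levels was not tested beyond the thinned values.

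Other genes of the pathway were taken from 7 lists, which like the members were chosen with earlier results of these data known. Of 16 other IRG and GBP genes, 14 were in the tables. In beta-like cells 3 of 12 measured were 2-fold lower with gluten and none higher, with a median log2 ratio of -0.72, and the lowest was F830016B08Rik at 18.5 and 54.4 CPM (-1.56 [-1.68, -1.44]). Alpha-like cells had 7 of 8 that were 2-fold lower (median -1.23), and delta-like cells had 5 of 7 (median -1.66). Irgq was not lower in any of these classes, at 10.4 and 9.07 CPM in beta-like cells (0.19 [0.00, 0.38]), an IRG relative that is not known as interferon-inducible. In T-like cells 1 of 5 was 2-fold lower, 9930111J21Rik2, at 50.8 and 127 CPM (-1.32 [-1.55, -1.10]).

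Genes that carry the signal split into some that followed the GTPase genes and some that went the other way. Irf9, which binds the ISRE as part of a complex, was lower with gluten in beta-like cells, at 8.57 and 13.7 CPM (-0.67 [-0.86, -0.49]), and in delta-like cells, at 15 and 41.1 (-1.45 [-1.88, -1.03]). Irf1, which binds the ISRE, was higher with gluten, at 85.8 and 29.0 CPM in beta-like (1.56 [1.48, 1.65]), 179 and 75.4 in alpha-like (1.24 [1.11, 1.38]) and 457 and 236 in T-like cells (0.95 [0.86, 1.05]). Irf1 was the only gene of this list 2-fold higher in beta-like and alpha-like cells, and of 16 signalling genes none of 14 measured was 2-fold lower in beta-like, while alpha-like cells had 2 of 12 and delta-like cells 3 of 10. The receptor chain Ifngr1 stood at 5.09 CPM with gluten and 6.57 with 20% HC in beta-like cells. Of 11 other interferon gamma targets, 0 of 10 were 2-fold lower in beta-like, 4 of 9 in alpha-like cells and 5 of 9 in those that were delta-like, with medians of -0.56, -0.83 and -1.09. The chemokine gene Cxcl9 was 2-fold higher in beta-like cells, at 3.8 CPM with gluten and 1.13 with 20% HC (log2 ratio between 1.33 and 2.17 by its interval). B2m had 409 CPM with gluten and 786 with 20% HC in beta-like cells (-0.94 [-0.97, -0.92]), and the immunoproteasome gene Psmb8 70.6 and 140 (-0.98 [-1.05, -0.92]). Cxcl10 went the other way, at 136 and 110 CPM in beta-like (0.30 [0.25, 0.35]) and 201 and 126 in alpha-like cells (0.67 [0.57, 0.78]). It also did so in T-like cells, at 156 and 38 CPM (2.04 [1.84, 2.24]), and in endothelial-like cells, at 705 and 282 (1.32 [1.12, 1.53]).

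Antiviral genes that answer mainly to type I interferon had median ratios nearer 0 than the members in the 3 endocrine classes, where the members had -0.71 in beta-like, -1.19 in alpha-like and -1.71 in delta-like cells. The antiviral median log2 ratio was -0.31 over 13 measured genes in beta-like, -0.67 over 8 in alpha-like and -0.94 over 8 in delta-like cells, and 0.17 over 8 in endothelial-like cells. In T-like cells it was -0.45 over 6 genes and in B-like cells -0.81 over 3, against -0.05 and -0.71 for the members. Rtp4 was the lowest in beta-like cells, at 8.83 CPM with gluten and 19.6 with 20% HC (-1.15 [-1.33, -0.98]), and Mx1 was 2-fold higher there, at 1.52 and 0.543 CPM (1.49 [0.86, 2.14]). The ATG8 conjugation genes, whose products guide IRG and GBP proteins to vacuoles, were near 0 in the endocrine classes, with medians of 0.12, 0.17 and 0.08 in beta-, alpha- and delta-like cells and none 2-fold apart. In T-like cells their median was 0.53, and Atg7 was 2-fold higher, at 44.1 and 20.7 CPM (1.09 [0.77, 1.40]). Inflammasome genes had a median of -0.12 over 6 measured genes in beta-like cells, none of them 2-fold apart. In macrophage-like cells Nlrp3, the sensor of the inflammasome that Gbp5 helps to assemble, was higher with gluten, at 133 and 19.9 CPM (2.74 [2.23, 3.27]), and Il1b stood at 839 and 553 CPM (0.60 [0.48, 0.73]).

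Immediate early and stress genes, known to be induced by tissue dissociation, were mostly higher with gluten, though not in every class. Of 20 such genes, 18 of 19 measured were 2-fold higher with gluten in beta-like cells (median 1.68), 6 of 19 in alpha-like (0.81), 12 of 19 in delta-like (1.12) and 14 of 19 in mesenchymal-like cells (1.41). Macrophage-like cells had 8 of 18, dendritic-like 5 of 18, endothelial-like 8 of 19, T-like 6 of 20 and B-like cells 2 of 17. Of these genes, 4 were lower with gluten in T-like and 5 in B-like cells, among them Egr2, which was 2-fold lower in T-like cells at 5.64 and 17.1 CPM (-1.60 [-2.34, -0.94]). In alpha-like cells Fos, at 1695 and 2096 CPM (-0.31 [-0.34, -0.28]), and Dusp1, at 296 and 319 (-0.11 [-0.18, -0.03]), were lower. Atf3 had 130 CPM with gluten and 8.67 with 20% HC in beta-like cells (3.91 [3.78, 4.04]). In the gluten library Atf3 was higher in beta-like cells rich in GTPase UMIs than in the others, at 260 and 109 CPM, while Jun was near level, at 1669 and 1610 CPM. Cells with at least 10 acinar UMIs were 4.76% to 15.3% of each of the 9 classes with gluten and 0% to 16.4% with 20% HC. The part of this response and of the carried-over acinar RNA in the GTPase differences was not tested, apart from the values without those cells.

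**Figure D5:**
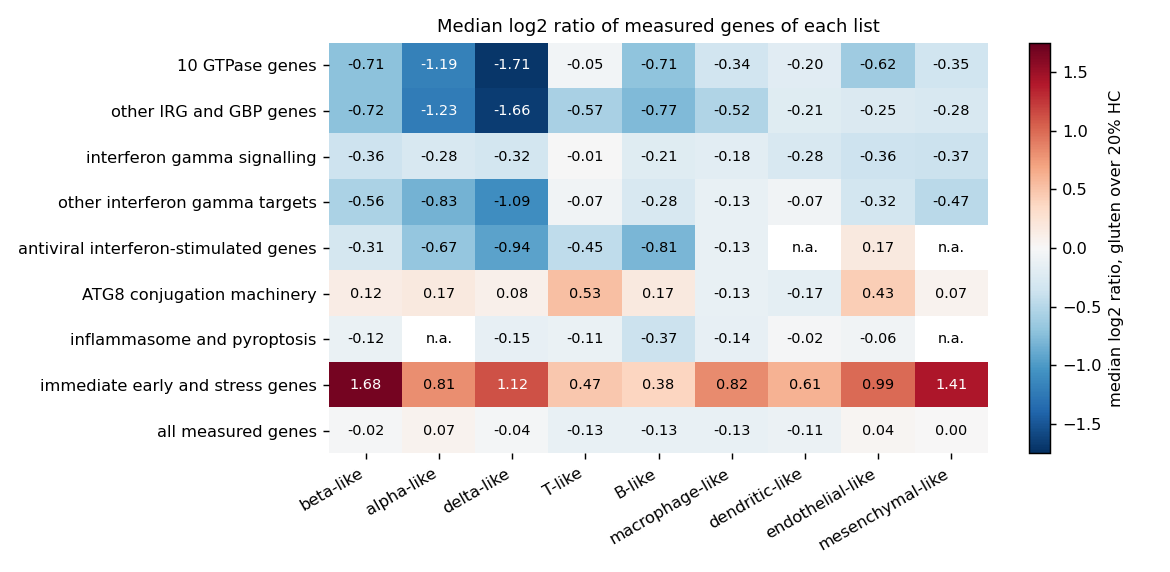
Median log2 ratio, gluten over 20% HC, of the measured genes of the 10 GTPase genes, of 7 pathway lists and of all measured genes (rows) in each of the 9 classes (columns), with n.a. where fewer than 3 genes of a list were measured. The GTPase row and the row of other IRG and GBP genes are both lowest in delta-like cells (-1.71 and -1.66), and the immediate early row is highest in beta-like cells (1.68).

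Across the 18 class and library sums, the genes whose log2(CPM + 1) followed the summed GTPase level most closely were ranked by Pearson's r among 9733 genes with at least 1000 UMIs. The first 10 outside the members were Xaf1 (0.93), Ifit3 (0.92), Il3ra (0.92), Fez2 (0.92), Leprot (0.91), Bst2 (0.91), Oasl2 (0.90), Pros1 (0.89), Capns1 (0.89) and Nrp1 (0.89). Xaf1, Ifit3, Bst2 and Oasl2 are interferon-stimulated genes, and Nrp1 is a receptor well known in endothelial cells. Each member is part of the sum, and yet they ranged widely: Irgm1, Igtp and Gbp7 reached 0.93, 0.92 and 0.92, while Iigp1, Irgm2 and Gbp6 reached 0.75, 0.71 and 0.61. The 18 points share 2 libraries and differ in depth and in cell number, so r is a description only.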

How the data were processed

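The authors deposited 1 table of raw UMI counts per library, gene by barcode and not normalized, per the file headers and values. Cell Ranger 4.0.0 and mm10 stand in the submitters' processing notes. How cells were called and which annotation was counted is not given in the sources used here. Of 31053 Ensembl identifiers, 30934 matched a symbol in GENCODE vM21.

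Cells with at least 500 UMIs, 200 genes and at most 20% mitochondrial UMIs were kept (7577 and 7565). Scrublet at its default cut marked 11 gluten cells (0.145%) and 256 cells (3.38%) of the other library, too few with gluten for a working caller, so the 6% with the highest score were removed in each (455 and 454). Classes came from markers: insulin at 20% or more of UMIs, glucagon 10%, somatostatin 5%, or a minimum of different markers with a UMI (T 4 of 10, B 3 of 7, macrophage 5 of 9, each type of dendritic cell 4, endothelial 5 of 9, mesenchymal 3 of 9). These minimums were set after the marker counts were seen. Cells that passed for 2 lineages (606 and 379) or for none (461 and 284) were left out. Class sums were divided by the class total (CPM). Intervals are exact at 95%, and PCR and capture error are not in them. Those of levels, ratios and shares of UMIs also leave out the spread between cells.

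The members and lists were chosen with earlier results of these data known. By rule the text names all 10 members in the 9 classes, the 10 genes most like them, and up to 4 genes per list by largest log2 ratio either way. Ifngr1, Ifng, Jun, Ins2, Mafa and Sst, and list genes beyond the widest, were named after their values were seen. No test across samples was run. edgeR 4.0.16 gave TMM factors as an alternative scaling. Clustering for comparison used scanpy 1.11.5 and leidenalg 0.10.2 without the members, and counting used numpy 2.4.6, scipy 1.17.1 and pandas 2.3.3 under Python 3.11.15. Ratios were checked on simulated counts. Sequences are from RefSeq promoters of GRCm38.p6. The alternatives were 3 other scalings, a stricter cell filter, doublets kept, cells with acinar RNA left out, thinning, classes from clusters and other minimum counts. Some genes of the lists are not reported here.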

Additional observations from a re-analysis of the deposited data

Results flagged for a closer look

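Gbp6 was the member whose direction turned between classes. Its log2 ratio was 0.76 [0.22, 1.28] in T-like cells, an interval above 0, while it was -0.68 [-1.19, -0.17] in alpha-like, -1.49 [-2.15, -0.85] in delta-like and -1.23 [-2.38, -0.15] in mesenchymal-like cells, all below 0. The difference between these classes was not tested. The counts were 55 UMIs with gluten and 73 with 20% HC in T-like cells, and 63 and 72 in alpha-like, 32 and 61 in delta-like and 12 and 22 in mesenchymal-like cells, which is under the minimum of 50 UMIs. There the ratio was -0.03 when cells were thinned to equal depth. Reads shared with Gbp10 make the level of Gbp6 uncertain in every class.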

How the results depend on the processing

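No paired analysis was possible because each diet has 1 library. Under the 8 alternatives the summed log2 ratio stayed below 0 in all 9 classes, from -1.07 to -1.01 in beta-like, -1.40 to -1.26 in alpha-like, -1.70 to -1.41 in delta-like, -0.81 to -0.58 in B-like, -0.82 to -0.47 in endothelial-like, -0.40 to -0.23 in T-like, -0.37 to -0.24 in macrophage-like, -0.38 to -0.22 in mesenchymal-like and -0.26 to -0.04 in dendritic-like cells. Values outside the counting interval were -1.40 in alpha-like cells without hormone, acinar and mitochondrial genes, -1.41 in delta-like cells without carriers of acinar RNA, and, thinned to 1 depth, -0.40 in T-like, -0.81 in B-like and -0.82 in endothelial-like cells. The cause was not tested. Of 90 single member values, 18 left their interval when thinned, 2 without acinar carriers and 1 with classes from clusters, and none with an interval clear of 0 turned its direction. With hormone, acinar and mitochondrial genes left out of the total, a scale chosen after seeing the data, 5 of the 9 classes with gluten and 3 with 20% HC kept their place. Genes 2-fold apart in either direction were 196 in beta-like cells with the minimum of 50 UMIs, 354 with 20 and 2625 with 1, 219, 442 and 3519 in alpha-like cells, and 152, 340 and 3306 in delta-like cells, and over the 9 classes 151 to 355, 340 to 661 and 2625 to 4123. Fewer than 50 UMIs limit Gbp5 in alpha-, delta- and mesenchymal-like cells, Gbp6 in 5 of the 9 classes and Irgm2 in B-, macrophage- and dendritic-like cells. Of the clusters named B, 1 with 168 of its 187 cells from the gluten library was led by Il10, Tnfrsf4 and Ctla4, which are not B cell markers, so single member values of B-like cells from clusters are not given one by one. Other cluster names also differed from the marker rule: 791 cells lay in a cluster named NK, against 19 and 8 NK-like cells by markers. Clusters of 224 and 168 cells named PP were led by Ly6h, as was the delta cluster.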

Other observations

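The highest GTPase level of any cells lay outside the 9 classes, in Schwann-like cells, the glia that wrap islets. The marker rule found 16 of them with gluten and 10 with 20% HC, with 4360 CPM [3850, 4919] and 8754 [8160, 9381]. A cluster formed without the GTPase genes and named by the same markers, used after seeing the data, held 46 and 32 cells, at medians of 4556.5 and 9043.5 UMIs. Its summed level was 4500 CPM [4236, 4776] with gluten and 8153 [7821, 8495] with 20% HC, and 37 of 46 and 32 of 32 cells had a GTPase UMI. The richest cell held 9.32% and 8.46% of those UMIs. Iigp1 stood at 697 and 1932 CPM, Gbp2 at 1021 and 1803, and the chemokine gene Cxcl10 at 3051 and 5908. The glial factor Sox10 was at 224 and 219 CPM and the glial gene S100b at 212 and 187. The T cell gene Cd3e was at 0 and 35.9 CPM and the macrophage gene C1qa at 29.1 and 0.

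PP-like cells, with 40 cells with gluten and 44 with 20% HC, had 81 CPM [62.7, 103] and 339 CPM [307, 374] of GTPase UMIs.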
